A study of Homo sapiens with 4 samples.

Results

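The miR-23, miR-27 and miR-24 clusters were followed by all strands of miR-23a, miR-27a, miR-24, miR-23b and miR-27b in a small-RNA sequencing table of HCT116 cells. Members were taken by name, and 11 of the 1345 miRNA rows belong to them. HCT116 is a human colorectal carcinoma cell line, and every library came from HCT116 cells in which doxycycline switches on a short hairpin RNA (shRNA). The shRNA is directed against SAE2, the catalytic subunit of the enzyme that activates the small protein modifier SUMO. The 2 groups were minus (replicate 1, line sh1; replicate 2, line sh2) and plus (replicate 1, labelled only sh; replicate 2, line sh2), read as uninduced and induced. Plus replicate 1 was placed in line sh1 by elimination, and 3 days of doxycycline are written in the protocol of every library, the minus ones included. No library of cells that received doxycycline without an SAE2 shRNA was analysed here, so an effect of the drug cannot be told apart from one of the knockdown. The 2 libraries of a group are separate lines. The limma p-values take the spread between lines mostly as pooled over all tested miRNAs (2 residual and 43.0 prior degrees of freedom). A small p therefore does not measure how closely the lines agreed for that strand.

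The clusters are paralogs. Each makes 1 primary transcript with 3 hairpins, and each hairpin can give a strand from its 5′ arm (5p) and one from its 3′ arm (3p), of which the 3p strand is usually the abundant one, held by Argonaute. A miRNA finds its targets mainly through its seed, bases 2 to 8. Both miR-23 genes are known to be repressed by MYC in tumour cells, miR-27 is known for restraining PPARG and adipocyte differentiation, and miR-24 for restraining cell cycle genes such as E2F2.

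The mature sequences of all 11 strands were found in RefSeq (GRCh38.p14), and the abundant strands are shown with the seed in capitals to make plain what separates the paralogs.
miR-23a-3p: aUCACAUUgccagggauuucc
miR-23b-3p: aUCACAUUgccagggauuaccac
miR-27a-3p: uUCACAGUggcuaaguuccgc
miR-27b-3p: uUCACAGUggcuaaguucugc
miR-24-3p: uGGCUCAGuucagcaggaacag
Counted from 1 at the 5′ end, miR-23a-3p and miR-23b-3p differ over their 21 shared positions by U19A only, with 2 more bases at the end of miR-23b-3p. miR-27a-3p and miR-27b-3p differ by C19U only. Each pair therefore has 1 seed and the same first 18 bases, so a read that ends by base 18 fits both paralogs. How the submitters assigned such reads is not given in the sources used here. miR-24-3p is the same sequence from both loci and has 1 row, so its level belongs to both clusters together.

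The 5p strands are less alike and so tell the loci apart more readily. They are shown in the same way.
miR-24-2-5p: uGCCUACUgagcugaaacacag
miR-24-1-5p: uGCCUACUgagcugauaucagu
miR-23a-5p: gGGGUUCCuggggaugggauuu
miR-23b-5p: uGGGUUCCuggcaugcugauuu
miR-27a-5p: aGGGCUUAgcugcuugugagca
miR-27b-5p: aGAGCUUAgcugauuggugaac
The miR-24 copies share the first 15 bases of their 5p strand and differ at 6 of 22 positions, the miR-23 5p strands at 7 of 22 and the miR-27 5p strands at 8 of 22. The seed is shared within the miR-24 and miR-23 pairs and differs by G3A between miR-27a-5p and miR-27b-5p.

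On chromosome 19 the 3 hairpins MIR23A (chr19:13836587-13836659), MIR27A (chr19:13836440-13836517) and MIR24-2 (chr19:13836287-13836359) lie in that order on the minus strand within 373 bases. GENCODE v29 puts all 3 in an exon of the noncoding transcript AC020916.1 on the same strand. On chromosome 9 MIR23B (chr9:95085208-95085304), MIR27B (chr9:95085445-95085541) and MIR24-1 (chr9:95086021-95086088) lie on the plus strand within 881 bases, inside the protein-coding gene C9orf3. MIR23B and MIR27B are intronic in all 7 spanning transcripts of that gene, and MIR24-1 is intronic in all but 1, whose exon holds it and which is marked for nonsense-mediated decay. All coordinates are GRCh38, while the submitters name hg19. The MIR27A and MIR27B hairpins are shown with their 5p and 3p strands in capitals, because each gave a strand that is called as changed below.
MIR27A: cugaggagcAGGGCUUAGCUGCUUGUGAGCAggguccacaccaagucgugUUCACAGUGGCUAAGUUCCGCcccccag
MIR27B: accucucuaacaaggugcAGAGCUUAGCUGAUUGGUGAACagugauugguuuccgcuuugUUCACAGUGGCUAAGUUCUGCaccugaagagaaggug

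The deposited values are normalised read counts. They summed to between 9700472 and 10519207 per library, and 1 read was worth between 0.95 and 1.03 of a count as estimated from low values. The label of the cells was checked with marker miRNAs. The 14 rows of colon epithelial miRNAs summed to between 272263 and 321729, against 1003 to 1222 for 8 blood rows, 14118 to 16937 for 6 stromal and endothelial rows and 68.6 to 95.9 for 4 rows of muscle, liver and neuron. Of the tested rows 6 of 13 epithelial strands rose (miR-192-5p, miR-194-5p, miR-215, miR-200a-3p and both strands of miR-200b), where 13.4% of all 709 tested miRNAs rose. Of 5 stromal strands miR-143-3p and miR-199a-3p rose and miR-145-5p fell (limma). The miR-143-3p groups overlapped, at 2892 and 2724 in the minus and 2857 and 4143 in the plus libraries (replicate 1, then replicate 2). None passed among 4 blood strands and 2 of muscle, liver or neuron (limma). At an unadjusted p under 0.05 there were none in the blood list and 1 in the last list. The part of these markers in the results on the clusters was not tested. In bulk RNA a change in the share of cells that make a miRNA and a change per cell cannot be told apart.

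The clusters were abundant. All 11 strands together made up 3.44% and 3.19% of the sum over all rows in the minus libraries (replicate 1, then replicate 2). In the plus libraries they made up 4.60% and 3.45%, so plus replicate 1 stood apart at the top. Some rows repeat another row's values, so these are shares of summed rows. miR-24-3p ranked between 12 and 16 of all rows in each library, miR-23a-3p between 16 and 27, miR-27a-3p between 19 and 36 and miR-27b-3p between 37 and 44. miR-23b-3p was below its paralog by a factor of 7.13 to 10.4, at ranks between 69 and 78. The 5p strands lay much lower, with miR-24-2-5p at ranks between 107 and 122 and miR-23a-5p, miR-24-1-5p and miR-23b-5p between ranks 335 and 406. Ligation and amplification differ between sequences, so an order of levels between miRNAs is one of read counts.

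**Figure D1:**
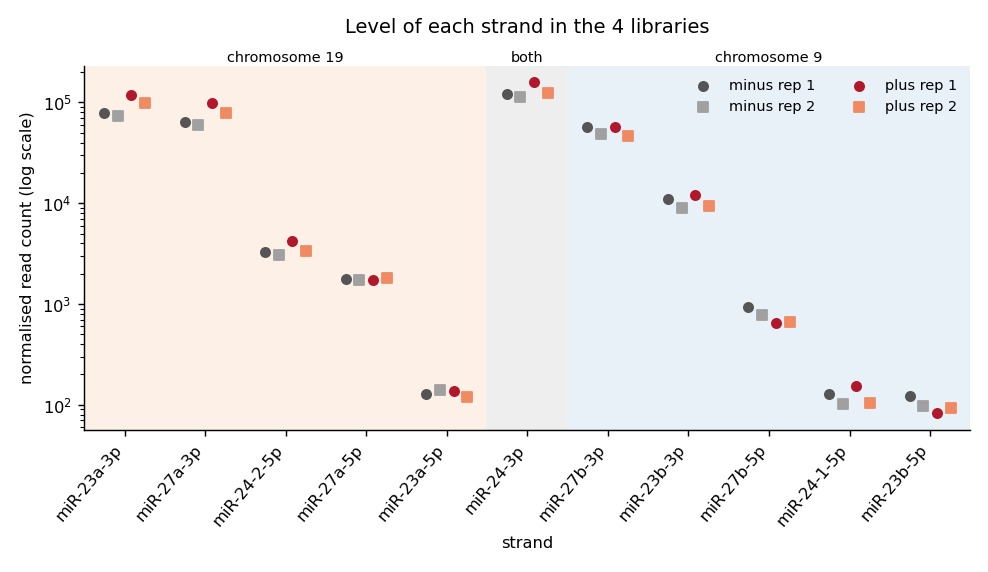
Normalised read count on a log scale (y axis) of each of the 11 strands (x axis) in the 4 libraries, 1 point per library, with strands of the chromosome 19 cluster on the left, the shared miR-24-3p in the middle and the chromosome 9 cluster on the right. The plus points of miR-23a-3p, at 98129 and 117545, lie above the minus points, at 73974 and 78312, while those of miR-27b-3p overlap.

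The first comparison asked which strands changed with induction. The main strands of the chromosome 19 cluster rose by 1.42- and 1.43-fold, miR-24-3p rose less, and the only strand that fell was the minor strand of miR-27b on chromosome 9. All 11 strands passed the level filter (a library mean of 10 or more), and 3 rose, 1 fell and 7 did not pass (limma, adjusted p under 0.05 over 709 miRNAs). Of all miRNAs tested 28.5% were called, 13.4% higher in plus and 15.1% lower, so 4 of 11 is near the background. The number of called strands became 0 without plus replicate 1 or without plus replicate 2 (limma, with 2 and 4 strands at an unadjusted p under 0.05), 2 without minus replicate 1 and 3 without minus replicate 2. Of the 709, 95 rose and 107 fell, against 121 and 83 when libraries were scaled by median-ratio size factors. The median log2 change was 0.10 over the members and −0.031 over all tested.

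miR-23a-3p, a chromosome 19 main strand, stood at 78312 and 73974 normalised counts in the minus libraries, replicates 1 and 2 in that order here and below, and at 117545 and 98129 in the plus libraries. Both plus libraries lay above both minus libraries, and plus replicate 1 was the highest. The mean went from 76143 ± 3068 to 107837 ± 13729 (SD, n = 2 each), a 1.42-fold rise with a log2 change of 0.50 ± 0.085 (SE, limma adjusted p = 1.2e-05).

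miR-27a-3p, its neighbour in the transcript, stood at 63887 and 60279 in the minus libraries and at 99276 and 78674 in the plus libraries. The groups were again apart, with plus replicate 1 on top. The mean went from 62083 ± 2551 to 88975 ± 14568 (SD, n = 2 each), a 1.43-fold rise with a log2 change of 0.51 ± 0.088 (SE, limma adjusted p = 1.31e-05). The ratio of miR-23a-3p to miR-27a-3p within a library was 1.23 in both minus libraries and 1.18 and 1.25 in the plus libraries, so these strands kept nearly the same proportion.

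miR-24-3p, the most abundant member, stood at 121872 and 111999 in the minus libraries and at 158588 and 124787 in the plus libraries. Plus replicate 2 was above minus replicate 1 by a small margin. The mean went from 116936 ± 6981 to 141688 ± 23901 (SD, n = 2 each), with a log2 change of 0.27 ± 0.089 (SE, limma adjusted p = 0.0195). This call was the least firm of the rises. It was lost when libraries were set to equal totals (adjusted p = 0.191) and at a minimum mean of 100 (adjusted p = 0.0829). The call was also lost whichever library was left out. With a plus library left out the log2 change was 0.095 (replicate 1) or 0.44 (replicate 2). With a minus library left out it was 0.33 (replicate 1) or 0.21 (replicate 2).

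The rises of miR-23a-3p and miR-27a-3p missed the threshold after quantile normalization, with log2 changes of 0.39 and 0.33 (limma adjusted p = 0.0606 and 0.15). They also missed it without plus replicate 1, at 0.37 and 0.34, and without plus replicate 2, at 0.63 and 0.68.

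miR-24-2-5p, the strand that marks the chromosome 19 copy of miR-24, stood at 3245 and 3048 in the minus libraries and at 4182 and 3321 in the plus libraries. The groups did not overlap, but plus replicate 2 lay close to minus replicate 1. Its log2 change of 0.24 (SE 0.10) missed the threshold (limma adjusted p = 0.0616), and it passed under 2 of 14 alternatives, with the shRNA line as a block (adjusted p = 0.0249) and under median-ratio scaling (adjusted p = 0.0121, log2 change 0.31). Without plus replicate 1 the log2 change was 0.079 (limma adjusted p = 0.534), and without plus replicate 2 it was 0.41. The ratio of miR-24-3p to miR-24-2-5p was 37.6 and 36.8 in the minus libraries and 37.9 and 37.6 in the plus libraries.

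The other minor strands of the chromosome 19 cluster, miR-27a-5p and miR-23a-5p, did not pass. miR-27a-5p stood at 1783 and 1747 in the minus and at 1733 and 1810 in the plus libraries, with a log2 change of 0.0053 (limma adjusted p = 0.974). The groups overlapped and all 4 values were close. miR-23a-5p stood at 127 and 139 in the minus and at 138 and 121 in the plus libraries, with a log2 change of −0.043 (limma adjusted p = 0.881). It rested on about 272 minus reads and 252 plus reads, for which the counting interval of the plus to minus ratio was 0.814 to 1.16.

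In the chromosome 9 cluster neither main strand passed. miR-27b-3p stood at 57099 and 48173 in the minus and at 57511 and 46069 in the plus libraries, with a log2 change of −0.027 ± 0.091 (SE, limma adjusted p = 0.853). Its values split by replicate number and not by group, with both replicates 1 above both replicates 2. miR-23b-3p stood at 10980 and 8896 in the minus and at 12016 and 9401 in the plus libraries, with a log2 change of 0.10 ± 0.098 (SE, limma adjusted p = 0.444). It showed the same split, with plus replicate 2 below minus replicate 1.

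The minor strand miR-27b-5p fell, from 937 and 780 in the minus to 647 and 661 in the plus libraries. Both plus libraries were below both minus libraries and close to each other. The mean went from 859 ± 111 to 654 ± 10.1 (SD, n = 2 each), a log2 change of −0.39 ± 0.12 (SE, limma adjusted p = 0.0135). The call was lost after quantile normalization (adjusted p = 0.124) and without minus replicate 1, where the log2 change was −0.25, or without either plus library.

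miR-23b-5p stood at 123 and 96.3 in the minus and at 82.3 and 94.0 in the plus libraries. Plus replicate 2 was just below minus replicate 2. Its log2 change of −0.30 did not pass (limma adjusted p = 0.291), and dropping a minus library moved it to −0.13 (replicate 1) or −0.48 (replicate 2). The counting interval of the plus to minus ratio, from about 223 and 172 reads, was 0.658 to 0.989. miR-24-1-5p, the marker of the chromosome 9 copy of miR-24, stood at 129 and 103 in the minus and at 155 and 105 in the plus libraries, which overlap. Its log2 change was 0.15 (limma adjusted p = 0.617), with a counting interval of 0.94 to 1.35 for the ratio. Reads are not independent molecules, so these 95% exact binomial (Clopper-Pearson) intervals cover counting error only.

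Both plus libraries lay above both minus libraries for 4 of the 11 strands, and below them for 2. Over all tested miRNAs 29.1% and 33.9% did so. The size of the change differed between the lines, where 1 library per condition allows no test. For all 4 called strands it was larger in line sh1 than in line sh2. miR-23a-3p was at 1.501-fold and 1.33-fold, miR-27a-3p at 1.55-fold and 1.31-fold, miR-24-3p at 1.30-fold and 1.11-fold and miR-27b-5p at 0.69-fold and 0.847-fold. The share of all tested miRNAs with the larger change in line sh1 was not counted, so this does not set the clusters apart.

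**Figure D2:**
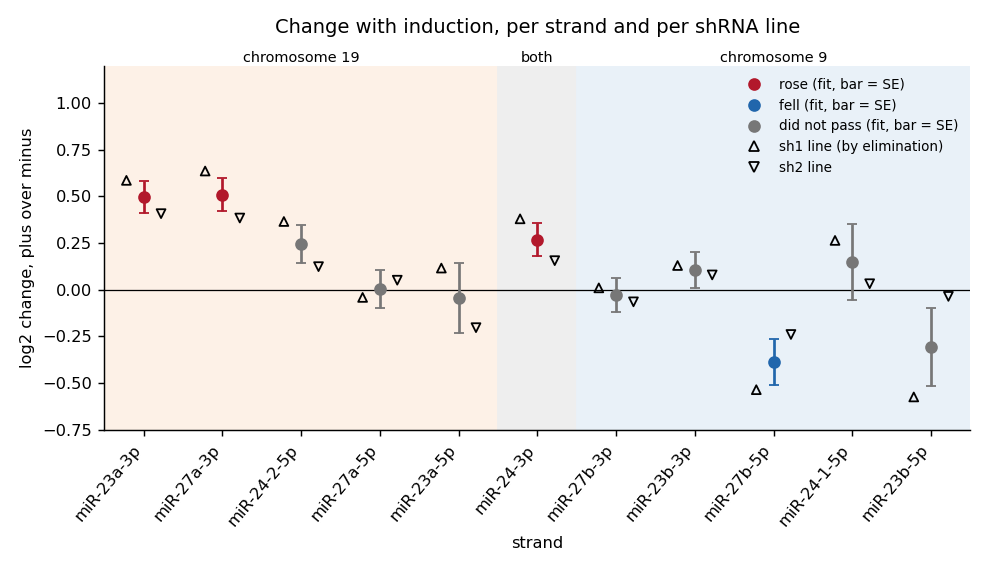
Log2 change, plus over minus (y axis), of each strand (x axis), with filled points for the limma fit over 4 libraries, bars of 1 standard error, and open triangles for the difference within each shRNA line. miR-23a-3p and miR-27a-3p lie at 0.50 and 0.51, miR-27b-3p at −0.027 and miR-27b-5p at −0.39.

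The second comparison set the chromosome 19 cluster against its chromosome 9 paralog within each library, where the scaling of libraries drops out of the ratio. The ratio of miR-23a-3p and of miR-27a-3p to its paralog was higher in both plus than in both minus libraries. miR-23a-3p was 7.13 and 8.32 times miR-23b-3p in the minus libraries and 9.78 and 10.4 times in the plus libraries. The mean log2 ratio went from 2.94 ± 0.16 to 3.34 ± 0.066 (SD, n = 2 each), a difference of 0.39.

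miR-27a-3p was 1.12 and 1.25 times miR-27b-3p in the minus libraries and 1.73 and 1.71 times in the plus libraries. The mean log2 ratio went from 0.24 ± 0.11 to 0.78 ± 0.011 (SD, n = 2 each), a difference of 0.54. The plus libraries, which were apart in the level of each strand, agreed closely in this ratio. The difference was 0.63 in line sh1 and 0.45 in line sh2.

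Among the minor strands miR-27a-5p was 1.90 and 2.24 times miR-27b-5p in the minus and 2.68 and 2.74 times in the plus libraries, a difference in log2 ratio of 0.39 with groups apart. miR-24-2-5p was 25.2 and 29.6 times miR-24-1-5p in the minus and 26.95 and 31.6 times in the plus libraries, which overlap, with a difference of 0.096. That difference turned to −0.020 without minus replicate 1 and to −0.015 without plus replicate 2. miR-23a-5p was 1.03 and 1.44 times miR-23b-5p in the minus and 1.67 and 1.28 times in the plus libraries, so the lines went opposite ways and the groups overlapped.

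Summed over the 5 strands that can be assigned to each locus, the chromosome 19 cluster stood at 147355 and 139187 in the minus and at 222874 and 182055 in the plus libraries. The chromosome 9 cluster stood at 69268 and 58049 in the minus and at 70411 and 56330 in the plus libraries. The share of chromosome 19 in the 2 sums was 68.0% and 70.6% in the minus and 76.0% and 76.4% in the plus libraries, and its groups did not overlap. For the ratios of miR-23a-3p, miR-27a-3p and miR-27a-5p to their paralogs a two-sided exact permutation test gave p = 0.33, the floor for 2 against 2 libraries (0.429 with Benjamini-Hochberg adjustment over the 9 ratios tested). For the other 2 pairs it was 0.667. With 2 libraries per group this exact test cannot give a p under that floor. Leaving out 1 library moved the difference for miR-23a-5p to miR-23b-5p, 0.26 with all libraries, to 0.023 or 0.50 when the minus library dropped was replicate 1 or 2, and to 0.071 or 0.45 when it was plus replicate 1 or 2. For the pairs miR-23a-3p, miR-27a-3p and miR-27a-5p it stayed between 0.28 and 0.62.

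**Figure D3:**
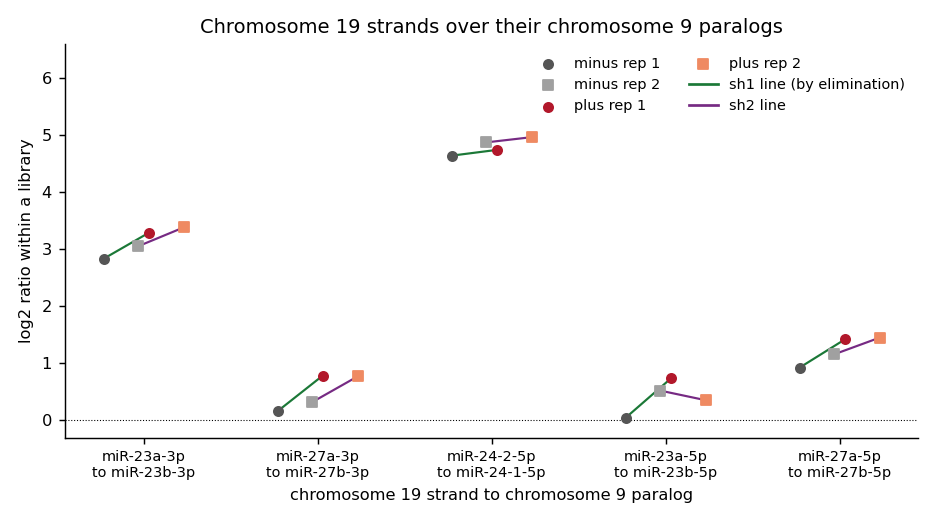
Log2 ratio within a library (y axis) of each chromosome 19 strand to its chromosome 9 paralog (x axis), 1 point per library, with lines joining the minus and plus library of an shRNA line. The miR-27a-3p to miR-27b-3p ratio is higher in both plus libraries, at 0.79 and 0.77, than in the minus libraries, at 0.16 and 0.32.

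The third comparison was between the strands of a hairpin. In all 4 hairpins with private strands at both arms the ratio of the 3p to the 5p strand was higher in both plus than in both minus libraries, on chromosome 9 as well as on chromosome 19. The ratio of miR-23a-3p to miR-23a-5p was 617 and 533 in the minus libraries and 853 and 814 in the plus libraries. For miR-27a it was 35.8 and 34.5 in the minus and 57.3 and 43.5 in the plus libraries.

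On chromosome 9 the ratio was 89.3 and 92.3 for miR-23b in the minus and 146 and 100.02 in the plus libraries. For miR-27b it was 60.9 and 61.7 in the minus and 88.9 and 69.7 in the plus libraries. The minus libraries agreed closely for miR-27a, miR-23b and miR-27b, and the plus libraries spread, with plus replicate 1 higher in each. The differences in mean log2 ratio were 0.54, 0.50, 0.41 and 0.36 for miR-23a, miR-27a, miR-23b and miR-27b. Without plus replicate 1 they were 0.51, 0.31, 0.14 and 0.18, and without plus replicate 2 they were 0.57, 0.70, 0.68 and 0.54. Each was thus larger with plus replicate 1 than without it, and the gap was smallest for miR-23a. After quantile normalization miR-27a was at 0.30 and miR-27b at 0.17. Each had p = 0.33 in the two-sided exact permutation test, and 0.429 with Benjamini-Hochberg adjustment over the 9 ratios.

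The strand that passed the test was not the same in the miR-27 hairpins. In miR-27a the 3p strand rose while the 5p strand was at a log2 change of 0.0053, and in miR-27b the 5p strand fell while the 3p strand was at −0.027. A higher ratio of main to minor strand was common in these libraries. Of 183 hairpin names with both arms tested, 35.5% had the ratio higher in both plus than in both minus libraries and 15.8% had it lower. The median difference over the 183 was 0.055 with quartiles of −0.12 and 0.34, so each member lay above the upper quartile. The members' minor strands are low in 2 of the 4 hairpins, at 82.3 to 139 counts for miR-23a-5p and miR-23b-5p, where counting error widens the ratio.

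**Figure D4:**
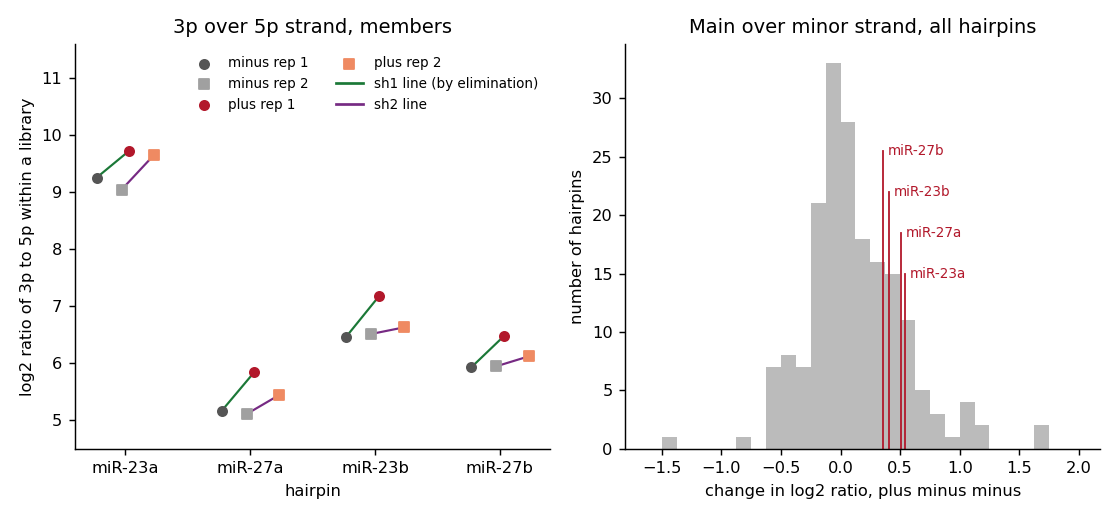
Left, log2 ratio of the 3p to the 5p strand within a library (y axis) for the 4 hairpins (x axis), 1 point per library, with lines joining the libraries of an shRNA line. Right, number of hairpins (y axis) by the change in log2 ratio of main to minor strand, plus minus minus (x axis), over 183 hairpins, with the 4 members marked at 0.36 to 0.54.

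The genome neighbours were taken from RefSeq within 1 Mb. On chromosome 19 the miR-181c hairpin starts 38040 bases from MIR23A on the other strand, and miR-181d is a further neighbour within 1 Mb. miR-181c-5p stood at 224 and 181 in the minus and at 267 and 226 in the plus libraries, and miR-181d at 490 and 461 in the minus and at 587 and 492 in the plus libraries. Neither passed, with log2 changes of 0.29 and 0.18 (limma adjusted p = 0.209 and 0.336). miR-181c-3p was at −0.27 (limma adjusted p = 0.345). None of these 3 tested strands had an unadjusted p under 0.05. The fourth row, miR-5695, was below the level filter.

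Of 9 tested strands near the chromosome 9 cluster 1 fell and none rose, with a median log2 change of −0.13, and 4 had an unadjusted p under 0.05. Over all miRNAs tested 15.1% fell, 13.4% rose and 269 of 709 had an unadjusted p under 0.05, so these counts do not set the neighbours apart. The fall was let-7a-3p, which went from 1710 and 1593 in the minus to 1107 and 1059 in the plus libraries (log2 change −0.61, limma adjusted p = 2.01e-05) and can also come from another let-7a locus. The other let-7 strands of that locus did not pass, with log2 changes of −0.13 for let-7a-5p, 0.24 for let-7d-3p, 0.13 for let-7d-5p, −0.056 for let-7f-1-3p and 0.15 for let-7f-5p. The let-7a-5p and let-7f-5p names carry no copy number, and further let-7a and let-7f copies exist. These 2 rows need not reflect this locus alone. miR-3074 is encoded opposite MIR24-1. Its 5p strand stood at 78.6 and 73.8 in the minus and at 43.3 and 59.3 in the plus libraries, with a log2 change of −0.58 (limma adjusted p = 0.0701). miR-3074-3p stood at 45.4 and 48.3 in the minus and at 21.7 and 41.9 in the plus libraries, with a log2 change of −0.62 (limma adjusted p = 0.129). Both strands were lower in both plus libraries, and neither passed. Whether the submitters counted by strand is not given in the sources used here, and reads of MIR24-1 and miR-3074 overlap in position. miR-2278, within the same host gene, stood at 79.6 and 76.6 in the minus and at 79.1 and 49.1 in the plus libraries (log2 change −0.32, limma adjusted p = 0.341).

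Among relatives by seed, miR-23c carries the miR-23 seed and was below the level filter, at 5.05 and 3.70 in the minus and at 9.24 and 13.2 in the plus libraries. miR-128, whose seed is that of miR-27 moved by 1 base, stood at 10600 and 10686 in the minus and at 10259 and 10183 in the plus libraries (log2 change −0.058, limma adjusted p = 0.644).

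The 5 miRNAs outside the clusters whose centred log2 profile over the 4 libraries was nearest to the mean of miR-23a-3p and miR-27a-3p were miR-331-3p, miR-22-3p, miR-584-5p, miR-193b-3p and miR-96-5p, out of 183 with a mean of at least 1000. Their Euclidean distances ran from 0.13 to 0.19, against 0.055 between miR-23a-3p and miR-27a-3p themselves. miR-331-3p stood at 4682 and 4431 in the minus and at 7109 and 6421 in the plus libraries. All 5 rose (limma), as a profile this near implies, and likeness over 4 libraries is a description.

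**Figure D5:**
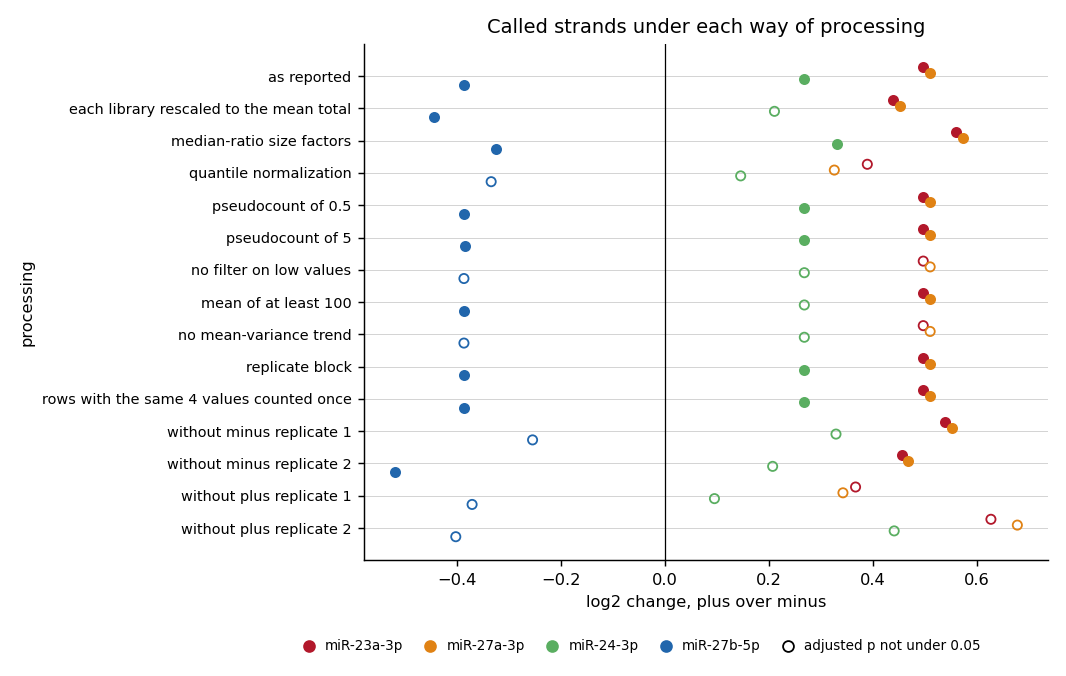
Log2 change, plus over minus (x axis), of the 4 called strands as reported and under 14 other ways of processing (y axis), with filled points where the limma adjusted p was under 0.05. The direction of each strand is the same throughout. Every call is lost with either plus library left out, after quantile normalization, without a level filter and without a mean-variance trend. The miR-24-3p call is also lost with either minus library left out, at equal totals and at a minimum mean of 100. miR-27b-5p also loses its call without minus replicate 1.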

How the data were processed

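Small RNA of 4 HCT116 libraries was sequenced, and the authors deposited 1 table of signal per mature miRNA. Its values look like read counts scaled per library, with totals that stay unequal (9700472 to 10519207). Low values lie near, but not on, whole multiples of a library-specific step, so no count model was run. Adapters were trimmed with cutadapt per the labels' titles, and the submitters' processing notes list TopHat2 2.0.8b and edgeR as tools and hg19 (GRCh37) as the build, with no steps. Columns that write sh4 were matched to titles that write sh2 by library number and index.

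Rows with a mean of at least 10 were tested with limma 3.58.1 (R 4.3.3), comparing plus with minus on log2(value + 1) with its mean-variance trend option, with Benjamini-Hochberg adjustment over all 709 and a threshold of 0.05. With 2 libraries per group the fit had 2 residual and 43.0 prior degrees of freedom. Folds are ratios of group means. Ratios within a library were tested by exact permutation (scipy 1.17.1). Replicate numbers pair the libraries by shRNA line, from the labels for line sh2 and by elimination for sh1; the deviations of same-numbered libraries from their group means correlated at 0.056 over the 709 rows.

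Members, neighbour, seed and marker lists were chosen with earlier results of these data known. Named were every member, each called row of the lists, each row of the neighbour and seed lists with a mean of at least 10, and the 5 rows nearest in profile. Alternatives covered scaling, pseudocount, level filter, trend, line as a block, identical rows and each library left out.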

Additional observations from a re-analysis of the deposited data

Results flagged for a closer look

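In 3 strands and 1 ratio the shRNA lines moved in opposite directions, with 1 library per line and condition, so the difference between the lines was not tested. miR-23a-5p had a log2 change of 0.12 in line sh1 (by elimination) and −0.20 in line sh2. miR-27a-5p was at −0.041 and 0.051, and miR-27b-3p at 0.010 and −0.064, in the same order. The log2 ratio of miR-23a-5p to miR-23b-5p changed by 0.69 in line sh1 and −0.17 in line sh2. Of all 709 tested miRNAs 190 had opposite directions in the 2 lines, a share similar to the 3 of 11 members. None of the 4 called members did, but a call itself favours strands whose lines agree.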

How the results depend on the processing

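The counts of calls and the log2 changes of the strands were recomputed under 14 alternatives (13 for miR-23b-5p, whose mean is below the stricter level filter), and the 9 ratios under 8, of which 4 leave out 1 library. Sums, neighbours, seed relatives, markers and profiles were not recomputed. The 202 calls over all miRNAs became 103 after quantile normalization, 5 without a level filter, 5 without a mean-variance trend, and 7 to 113 with 1 library left out. The 4 member calls became 0 in each of the first 3 (limma, with 3, 3 and 2 members at an unadjusted p under 0.05) and 0 to 3 with 1 library left out. Scaling by median ratios moved the median log2 change by 0.062 and equal totals by −0.057. The cause of these losses was not tested. No called strand changed direction. Among strands that did not pass, median-ratio scaling turned miR-23a-5p to 0.019 and miR-27b-3p to 0.035, and equal totals turned miR-27a-5p to −0.052. Leaving out 1 library gave log2 changes of −0.14 to 0.052 for miR-23a-5p, −0.026 to 0.037 for miR-27a-5p, −0.072 to 0.28 for miR-23b-3p, −0.19 to 0.13 for miR-27b-3p, −0.13 to 0.43 for miR-24-1-5p, −0.48 to −0.13 for miR-23b-5p and 0.079 to 0.41 for miR-24-2-5p. With 1 library left out the difference in log2 ratio of miR-24-2-5p to miR-24-1-5p ranged from −0.020 to 0.21. The other 8 ratios kept their direction under each of their 8 alternatives, but not their size, with ranges of 0.023 to 0.50 for miR-23a-5p to miR-23b-5p, and for the strand ratios of 0.30 to 0.70 for miR-27a, 0.14 to 0.68 for miR-23b and 0.17 to 0.54 for miR-27b. With the shRNA line as a replicate block 216 miRNAs and 5 members were called, miR-24-2-5p being the member added, and it changed no other member's call. Arms left with 1 library were assumed to vary like the other group.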
